A study of Mus musculus with 18 samples.

Results

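The phospholipase C (PLC) family was examined in the mouse embryo at E11.5, at the level of mRNA and of the ribosomes bound to it. The members are the genes of the study's list of signalling components whose symbol begins with Plcb, Plcd, Plce, Plcg, Plch, Plcl or Plcz, matched to the expression tables by UCSC identifier. This gave 10 of the 170 listed genes: *Plcb1*, *Plcb2*, *Plcb3*, *Plcb4*, *Plcd1*, *Plcd3*, *Plce1*, *Plcg1*, *Plcg2* and *Plch1*. All 10 were among the 12064 genes of the mesoderm table, and 8 were among the 11231 genes of the table of the neural tube (NT) and forelimb buds (FL). *Plcb2* and *Plcd3* were not analysed here in NT and FL. The rule uses symbols alone, although all 170 listed genes were among those of the mesoderm table.

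The mesoderm samples were GFP+ cells sorted at E11.5 from embryos that carried R26-mTmGflox/+ together with Tg(T-cre)1LWD/J/+, in which the T-Cre transgene switches on membrane GFP in cells that descend from the primitive streak. They are therefore a mixture of lineages, among them somite, limb and kidney, and not 1 cell type. NT and FL were microdissected at E11.5 from FVB embryos and hold all the cells of the dissected piece. Per the study's methods both tissues were taken from the same embryos and some NT pieces were snap frozen, but which libraries these fed is not given in the sources used here. For each of the 3 tissues there were 3 biological replicates of RNA-Seq and 3 of Ribo-Seq, 18 libraries in all. Ribo-Seq sequences ribosome-protected fragments (RPFs), the stretches of a transcript covered by a ribosome during nuclease digestion, and translational efficiency (TE) is the level of RPFs relative to that of mRNA. Per the study's methods, embryos for all 3 tissues were dissected or dissociated in media with cycloheximide. The study names this treatment as a plausible cause of a pileup of RPFs at the start of the coding sequence.

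PLC enzymes cleave the membrane lipid PIP2 into diacylglycerol, which activates protein kinase C, and IP3, which releases calcium that calmodulin then senses. The isoforms differ in what switches them on. PLC-β enzymes respond to G protein-coupled receptors, PLC-γ enzymes are phosphorylated by receptor tyrosine kinases such as FGF and PDGF receptors, PLC-ε is a target of Ras-type GTPases, and PLC-δ and PLC-η enzymes respond to calcium. In the embryo they therefore sit beneath many of the ligands that pattern the mesoderm and the limb.

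Because TE concerns the translation of each mRNA, the bases around the start codon of the members are shown here, taken from the GENCODE M21 annotation of GRCm38. For each gene the annotated transcript with the longest coding sequence (CDS) and at least 9 bases of 5′-UTR was used, which can differ from the isoform the authors counted. The start codon is in capitals, with 9 bases before it and 4 after it, written 5′ to 3′ on the strand of the gene.
Plce1: gtggtcaagATGacgt
Plcb2: cttgacatcATGtctt
Plcg1: cgctgcagcATGgcgg
Plcd3: ttcgagaccATGctgt
Plcg2: cggctgacaATGacca
Plcb3: ggcttagccATGgcgg
Plch1: cttccaacaATGaact
Plcb4: aataccatcATGgcca
Plcb1: tgagcccagATGgctg
Plcd1: gagaacaccATGcagt

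A purine at the third base before the start codon is the strongest element of the Kozak context, and a G directly after the start codon is the next. Of the 10 members, 9 had A or G at the former position, against 83.9% of 20770 coding genes, and *Plcb1* has C there. A G follows the start codon in 4 members, *Plcg1*, *Plcb3*, *Plcb4* and *Plcb1*, against 49.3% of coding genes. Both elements were present in 3 members, *Plcg1*, *Plcb3* and *Plcb4*, against 40.9% of coding genes. The 10 genes lie on 6 chromosomes, and 4 of them share chromosome 2, where *Plcb1* (chr2:134786067-135475258) and *Plcb4* (chr2:135659011-136014593) both lie on the plus strand. *Plce1* is at chr19:38481109-38785030 on the plus strand and *Plcg2* at chr8:117498291-117635142 on the plus strand.

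The CDS of the members ranged from 2346 nt in *Plcd1* to 6888 nt in *Plce1*, and the annotated 5′-UTR from 50 nt in *Plce1* to 374 nt in *Plcb1*, with a median of 166 nt over coding genes. An upstream AUG, a start codon in the 5′-UTR at which ribosomes can be engaged ahead of the main reading frame, was present in 4 of the 10 members, against 54.1% of coding genes. *Plcb1* had 4, *Plch1* had 3, and *Plce1* and *Plcb2* had 1 each. These counts depend on the isoform, since the longest annotated 5′-UTR held 4 in *Plce1* (580 nt) and 8 in *Plch1* (368 nt).

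Depth and library quality bear on the results in all tissues. RNA-Seq libraries held between 24555103 and 50136443 reads on the genes of the tables and Ribo-Seq libraries between 11000015 and 31993255 reads. Ribo-Seq replicate 3 stood apart in both dissected tissues. Over the genes of the table, Pearson's r on log2 normalized reads between NT Ribo-Seq replicates 1 and 2 was 0.989, and replicate 3 had 0.933 and 0.934 with them. In FL the corresponding values were 0.976 and 0.886 and 0.896. In the mesoderm, r between Ribo-Seq replicates 1 and 2 was 0.919, and replicate 3 had 0.961 with each. In RNA-Seq it was replicate 1 that stood apart in the mesoderm and in NT. In the mesoderm it had 0.939 and 0.953 with replicates 2 and 3, which had 0.987 with each other. The corresponding RNA-Seq values in NT were 0.946, 0.949 and 0.97, and those in FL were 0.987, 0.983 and 0.987. The neural genes *Nefm*, *Fabp7* and *Dcc* were higher in every NT library than in every FL library, and the limb genes *Hoxd13*, *Msx1* and *Pdgfra* were higher in every FL library than in every NT library of the same type. Results for NT and FL are therefore given with and without replicate 3.

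The first question was how much mRNA of each isoform was present, and levels of different genes are compared as normalized reads per kb of CDS. *Plcg1*, the ubiquitous PLC-γ isoform, was the most abundant member in all 3 tissues. Its mRNA level per kb in the mesoderm was 2488, 2858 and 2650 in replicates 1, 2 and 3, a mean of 2665 ± 185 (SD, n = 3), which was 56.4% of the sum over the 10 members. *Plcb3* followed with 954 ± 163 per kb and *Plcd1* with 479 ± 129 per kb. The ranges of these 3 genes over the replicates did not overlap.

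The other 7 members had mRNA levels in the mesoderm between 33.7 ± 3.27 per kb for *Plcb2*, the PLC-β isoform best known from blood cells, and 150 ± 22.1 per kb for *Plce1*. Neighbours in this lower group were not separated from each other. *Plce1* at 150 ± 22.1, *Plcg2*, the PLC-γ isoform of haematopoietic cells, at 123 ± 32.4, *Plch1* at 110 ± 35.2 and *Plcb4* at 102 ± 45.3 per kb lay within 1 another's spread. *Plcd3* had 60.3 ± 7.04 and *Plcb1* 52.3 ± 25.8 per kb.

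**Figure D1:**
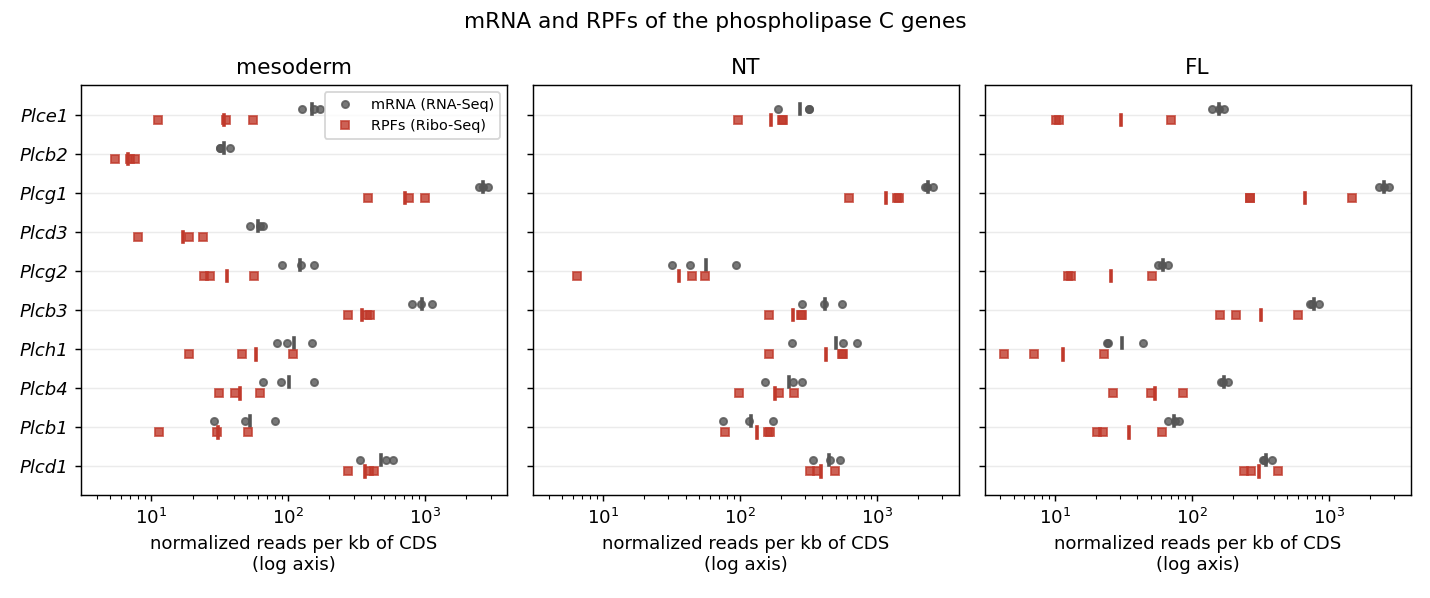
Normalized reads per kb of CDS (log axis) of each PLC gene in RNA-Seq (grey circles) and Ribo-Seq (red squares). Each point is 1 library and each vertical bar the mean of 3, and the mesoderm was normalized separately from NT and FL. *Plcg1* is the most abundant member in each tissue, *Plch1* drops from NT to FL in both library types, and the mean of the RPFs lies to the left of that of the mRNA for every member in the mesoderm.

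At the level of RPFs the order shifted. *Plcg1* remained first in the mesoderm at 713 ± 310 RPFs per kb, 43.2% of the family's sum. *Plcd1*, with 363 ± 79.0 per kb, and *Plcb3*, with 347 ± 64.1 per kb, were then not separated, although *Plcb3* had the larger mRNA level. *Plcb2* had the fewest RPFs, at 6.71 ± 1.13 per kb. Its 3 Ribo-Seq libraries held 13, 12 and 12 reads of the gene, and those of *Plcd3* held 30, 9 and 25 reads, so counting error is large for this pair.

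The second question was how efficiently these mRNAs were translated in the mesoderm. TE is given as log2 TE, centred so that the median over all genes is 0. Every member lay below that median in each of the 3 replicates. The fitted log2 TE ranged from -2.44 for *Plce1* to -0.42 for *Plcd1*, with a median of -1.69 over the 10 members against 0.00 over all genes. The rule for a TE-low gene was a log2 TE at least 3-fold below the median with an adjusted p under 0.05, and 5 of the 10 members met this rule, where 10.9% of the 12064 genes did. No member was called TE-high, as 1.17% of all genes were, nor did any have an unadjusted p under 0.05 above the median, by limma, edgeR or DESeq2.

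*Plce1*, the target of Ras-type GTPases, had the lowest TE. Its mRNA stood at 1170, 870 and 1065 normalized reads in replicates 1, 2 and 3, and its RPFs at 383, 76.8 and 244. The RPFs were below the mRNA in every replicate, with the lowest level in replicate 2. Log2 TE was -2.44 (SE 0.29, adjusted p = 5.32e-05), which is 5.43-fold below the median gene.

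*Plcb2* followed with mRNA at 113, 112 and 133 normalized reads and RPFs at 19.4, 24.9 and 27.1. The 3 replicates were close to each other despite the low counts. Its log2 TE was -2.33 (SE 0.28, adjusted p = 5.2e-05), or 5.01-fold below the median.

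*Plcg1* combined the largest mRNA level of the family with a low TE. It had 9718, 11162 and 10353 normalized reads of mRNA and 3897, 1496 and 2963 of RPFs. The mRNA varied little between replicates, and the RPFs were lowest in replicate 2. Log2 TE was -2.04 (SE 0.26, adjusted p = 8.03e-05), or 4.12-fold below the median.

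The other TE-low members were *Plcd3* and *Plcg2*. *Plcd3* had 123, 155 and 147 normalized reads of mRNA against 44.7, 18.7 and 56.5 of RPFs and a log2 TE of -1.97 (SE 0.34, adjusted p = 0.000453). *Plcg2* had 343, 589 and 468 of mRNA against 213, 91.3 and 102 of RPFs and a log2 TE of -1.89 (SE 0.32, adjusted p = 0.000401). For both, replicate 2 gave the lowest TE.

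The remaining 5 members were below the median at an adjusted p under 0.05 but less than 3-fold from it. *Plcb3* was nearest the limit, 2.83-fold below the median with a log2 TE of -1.50 (SE 0.21). *Plch1* stood at -1.24 (SE 0.30), *Plcb4*, the isoform of phototransduction and cerebellar neurons, at -1.19 (SE 0.19) and *Plcb1* at -0.91 (SE 0.23). *Plcd1*, the shortest member, was nearest the median at -0.42 (SE 0.17, adjusted p = 0.0485). Its mRNA was 786, 1372 and 1213 normalized reads and its RPFs 644, 915 and 998, so the libraries of both types overlapped. That adjusted p was 0.0507 with DESeq2 and 0.102, 0.0673 and 0.228 without replicate 1, 2 or 3. Without the replicate block it was 0.278, and those of *Plcb1* and *Plch1* were 0.22 and 0.102. The 95% confidence interval of *Plcd1*, from -0.80 to -0.04, lay above those of all 5 TE-low members, while the intervals of those 5 overlapped one another. By class of enzyme, the PLC-β members spread from -2.33 to -0.91 and the PLC-δ pair stood at -1.97 and -0.42, whereas both PLC-γ members were TE-low.

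**Figure D2:**
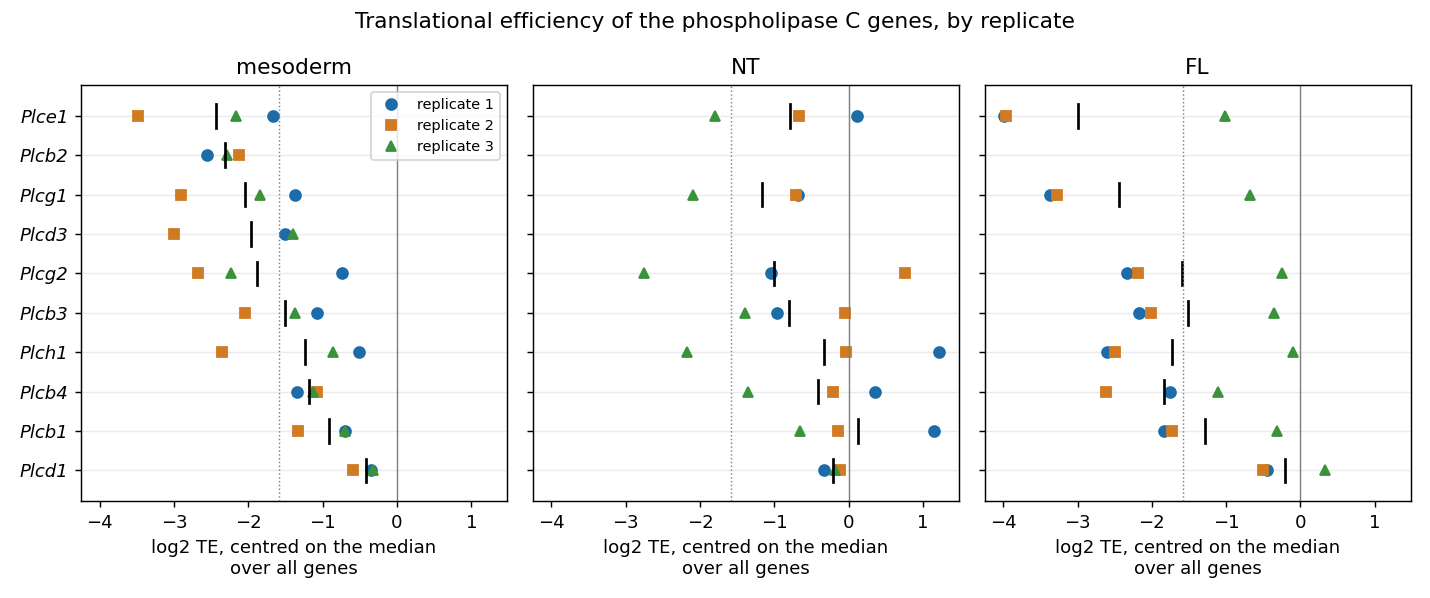
Log2 TE of each PLC gene in each replicate, centred on the median over all genes (solid line at 0). Black bars are means of 3 and the dotted line marks 3-fold below the median. In the mesoderm all points lie below 0, and replicate 3 (triangles) is the highest for all 8 genes in FL and the lowest for 7 of 8 in NT.

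Mesoderm replicate 2 gave the lowest log2 TE for 8 of the 10 members, and that Ribo-Seq library also stood apart in markers of blood. *Hba-x*, an embryonic globin, had 84280 normalized reads of RPFs there against 9340 and 18362 in replicates 1 and 3, and *Csf1r*, a macrophage receptor, 4854 against 1227 and 1800. In RNA-Seq *Hba-x* was highest in replicate 2 as well, with 2250.5, 12366.9 and 4719.3 in replicates 1, 2 and 3. The mRNA of *Csf1r* was 696.7, 963.6 and 963.7. The part of blood cells in the TE of the members was not tested. Without replicate 2, 3 members were called TE-low, *Plce1*, *Plcb2* and *Plcg1*, where 9.62% of all genes were. All 10 members still lay below the median, and their median log2 TE was -1.35.

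The neighbours of PLC in the pathway were read in the same way, from families fixed by symbol in the same list. Adenylyl cyclases (AC), which make cAMP, had 4 of 8 members called TE-low in the mesoderm, against 10.9% of all genes, and a median log2 TE of -1.59, from -3.33 for *Adcy1* to -1.16 for *Adcy3*. The PI3K family, which uses PIP2 as well, had 3 of 8 called TE-low and a median of -1.49, from -2.05 for *Pik3cd* to 0.22 for *Pik3r1*.

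In the protein kinase C (PKC) family, several isoforms respond to diacylglycerol. Of 8 PKC genes 0 were called TE-low in the mesoderm by limma, edgeR or DESeq2, where each called 10.9% of all genes. In each, 2 PKC genes were below the median at an unadjusted p under 0.05. Their median log2 TE was -0.38, from -1.51 for *Prkcz* to -0.00 for *Prkci*, both of them atypical isoforms that do not respond to diacylglycerol. Across all 170 listed signalling genes, 35 were TE-low and 1 was TE-high, against 10.9% and 1.17% of all genes, and the median log2 TE was -0.62.

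**Figure D3:**
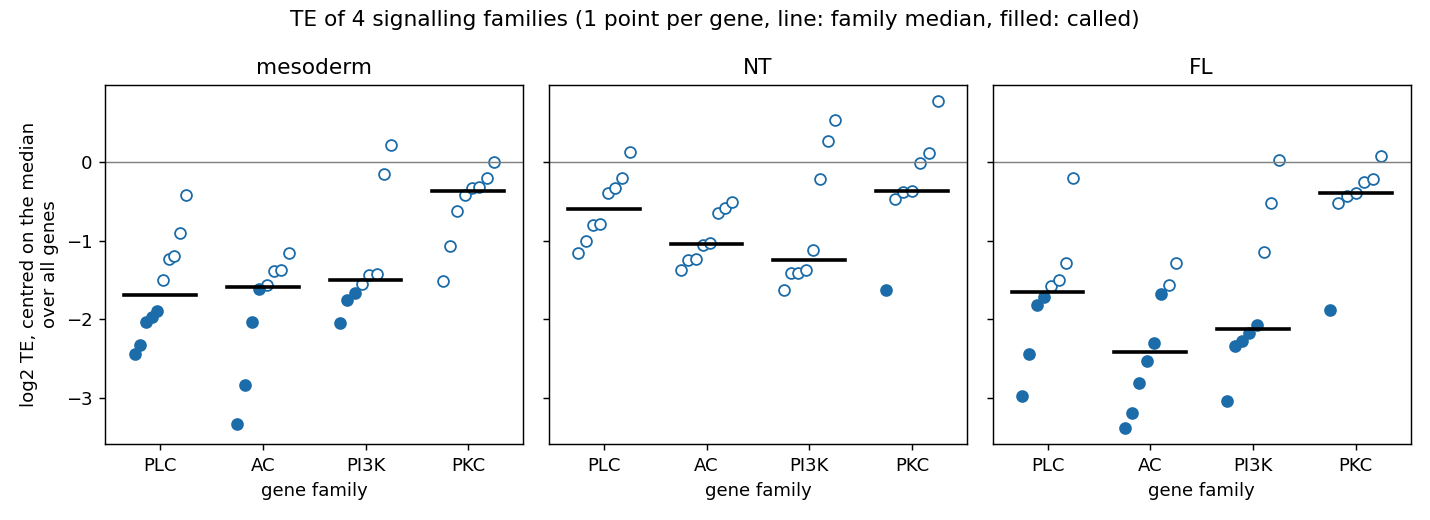
Log2 TE of the genes of 4 signalling families in each tissue, centred on the median over all genes (line at 0). Each point is 1 gene, filled where called TE-low, and black lines are family medians. In the mesoderm the medians are -1.69 for PLC, -1.59 for AC, -1.49 for PI3K and -0.38 for PKC.

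The families also differ in the length of their CDS, with a median of 3675 nt for PLC, 3394 nt for AC, 2877 nt for PI3K and 2034 nt for PKC. Over the 162 listed genes with a matched annotation, Spearman's rho of mesoderm log2 TE with CDS length was -0.28. It was -0.48 over the 10 PLC genes. These are descriptions across genes of the same libraries. Among listed genes with a CDS between 2300 and 7000 nt, the 10 PLC genes had a median log2 TE of -1.69 and the other 73 genes -0.77.

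In NT the members were closer to the median gene. The fitted log2 TE ran from -1.16 for *Plcg1* to 0.12 for *Plcb1*, with a median of -0.60 over 8 members. With limma 0 of the 8 were called TE-low, where 4.13% of the 11231 genes were, and 1 member, *Plcg1*, had an unadjusted p under 0.05. The count was also 0 with edgeR and with DESeq2, which called 4.08% and 4.32% of all genes, with 0 and 1 members below an unadjusted p of 0.05. *Plch1* had one of the largest spreads between replicates. Its mRNA was 1203, 2838 and 3562 normalized reads and its RPFs were 2792, 2826 and 825, so replicate 3 had the most mRNA and the fewest RPFs. Its log2 TE in single replicates was 1.22, -0.04 and -2.18.

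In FL 4 of 8 members were called TE-low, *Plce1*, *Plcg1*, *Plcb4* and *Plch1*, where 13.4% of all genes were. The median log2 TE of the members was -1.65. *Plce1* was again the lowest, with 1192, 1094 and 961 normalized reads of mRNA and 73.8, 70.3 and 482 of RPFs. The mRNA was even across replicates, whereas the RPFs of replicate 3 exceeded those of the other replicates several times over. Its log2 TE was -2.98 (SE 0.58, adjusted p = 0.00115), or 7.89-fold below the median.

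*Plcg1* showed the same split among the FL libraries. It had 10739, 9978 and 9095 normalized reads of mRNA and 1036, 1036 and 5736 of RPFs, with a log2 TE of -2.44 (SE 0.53, adjusted p = 0.00206). *Plcb4* had a log2 TE of -1.82 (SE 0.42, adjusted p = 0.00285) and *Plch1* of -1.72 (SE 0.62, adjusted p = 0.029), a call that was lost with a pseudocount of 8, with edgeR and with DESeq2. *Plcg2*, at -1.58 (SE 0.74, adjusted p = 0.0794), *Plcb3*, at -1.50 (SE 0.41, adjusted p = 0.00774), and *Plcb1*, at -1.29 (SE 0.44, adjusted p = 0.0228), did not meet the rule. *Plcd1* was nearest the median, as in the mesoderm, at -0.21 (SE 0.26).

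Without replicate 3 of both tissues, 7 of the 8 members were called TE-low in FL, where 18.2% of all genes were, and *Plcd1* was the exception. The log2 TE of *Plce1* was then -3.99 (SE 0.24) and that of *Plcg1* -3.34 (SE 0.12), both lower than with all replicates. Without replicate 1 or without replicate 2, *Plce1* was the 1 member called, where 8.2% and 8.16% of all genes were. The count in NT was 0 under each of these omissions, where between 2.4% and 3.53% of all genes were called.

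The third question was what differs between FL and NT, the pair of tissues normalized together. The mRNA of *Plch1*, an isoform best known from neurons, was lower in FL. It stood at 1203, 2838 and 3562 normalized reads in NT and at 220, 123 and 122 in FL. The log2 difference, FL minus NT, was -3.94 (SE 0.62, adjusted p = 0.000301), or 15.4-fold lower in FL. It was the 1 member of 8 called lower by the rule for differences between the tissues, at least 2-fold with an adjusted p under 0.2, where 10.2% of all genes were called. With limma 0 members were called higher, as 8.71% of all genes were. *Plcb3* came nearest to that, with 2072, 1046 and 1521 normalized reads in NT and 2721, 3132 and 2777 in FL, and a log2 difference of 0.95 (SE 0.41, adjusted p = 0.13) that stayed under 2-fold. It was the 1 member with an unadjusted p under 0.05 for higher mRNA with limma and with DESeq2, and there were 0 with edgeR. DESeq2 and edgeR called 0 higher as well, where they called 949 and 921 of the 11231 genes higher. Without replicate 3, *Plch1* was again the 1 member called lower, at -3.48 (SE 0.43), where 10.4% of all genes were.

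The mRNA of the other 6 members did not pass the test. Their log2 differences lay between -0.78 for *Plce1* (95% confidence interval from -2.03 to 0.48) and 0.28 for *Plcg2* (from -1.31 to 1.87). *Plce1* mRNA stood at 1303, 2204 and 2196 normalized reads in NT and, without overlap, at 1192, 1094 and 961 in FL. *Plcg1* mRNA differed by 0.10, with an interval from -1.04 to 1.24. In these whole tissues, fewer cells that carry a transcript and less of it per cell cannot be told apart.

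RPFs fell in FL for more members. Here 5 of 8 were called lower, *Plch1*, *Plce1*, *Plcb1*, *Plcb4* and *Plcg1*, where 19.7% of all genes were, and 0 were called higher, as 15.5% of all genes were, or had an unadjusted p under 0.05 in that direction by limma, edgeR or DESeq2. *Plch1* had 2792, 2826 and 825 RPFs in NT and 35.3, 21.3 and 115 in FL, a log2 difference of -5.36 (SE 0.62, adjusted p = 1.58e-05), or 41.1-fold lower. *Plce1* had 1400, 1412 and 662 in NT and 73.8, 70.3 and 482 in FL, a log2 difference of -3.00 (SE 0.58, adjusted p = 0.00122). For *Plch1*, *Plce1*, *Plcb1* and *Plcb4* every FL library was below every NT library, as it was for 21.1% of all genes.

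*Plcb1* RPFs stood at 604, 583 and 283 normalized reads in NT and 81.8, 74.6 and 222 in FL, a log2 difference of -2.05 (SE 0.44, adjusted p = 0.00233). Those of *Plcb4* counted 684, 880 and 349 for NT, against 176, 93.8 and 303 for FL, with a difference of -1.79 (SE 0.42, adjusted p = 0.0041). *Plcg1* overlapped between the tissues, since FL replicate 3, at 5736, exceeded all 3 NT libraries, at 5476, 5685 and 2451. Its difference was -1.21 (SE 0.53, adjusted p = 0.0765), and it was not called with edgeR or DESeq2. These each called the other 4, where they called 18.4% and 17.8% of all genes lower. The RPFs of *Plcg2*, *Plcb3* and *Plcd1* did not pass the test, with log2 differences of -0.32, 0.22 and -0.35.

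The sizes of the RPF differences rested on replicate 3. Without it 6 members were called lower, *Plcg2* being added, where 26.6% of all genes were. In that fit the log2 difference was -6.63 for *Plch1*, -4.27 for *Plce1*, -2.91 for *Plcb1*, -2.58 for *Plcb4*, -2.43 for *Plcg1* and -1.95 for *Plcg2*. Without replicate 1 or without replicate 2, 4 members were called lower, where 14.2% and 14.3% of all genes were. *Plch1* then had -4.91 and -4.55, *Plce1* -2.38 and -2.34, *Plcb1* -1.65 and -1.61, and *Plcb4* -1.71 and -1.08. *Plcg1*, at -0.61 and -0.59, and *Plcg2*, at 0.39 and 0.59, were not called.

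**Figure D4:**
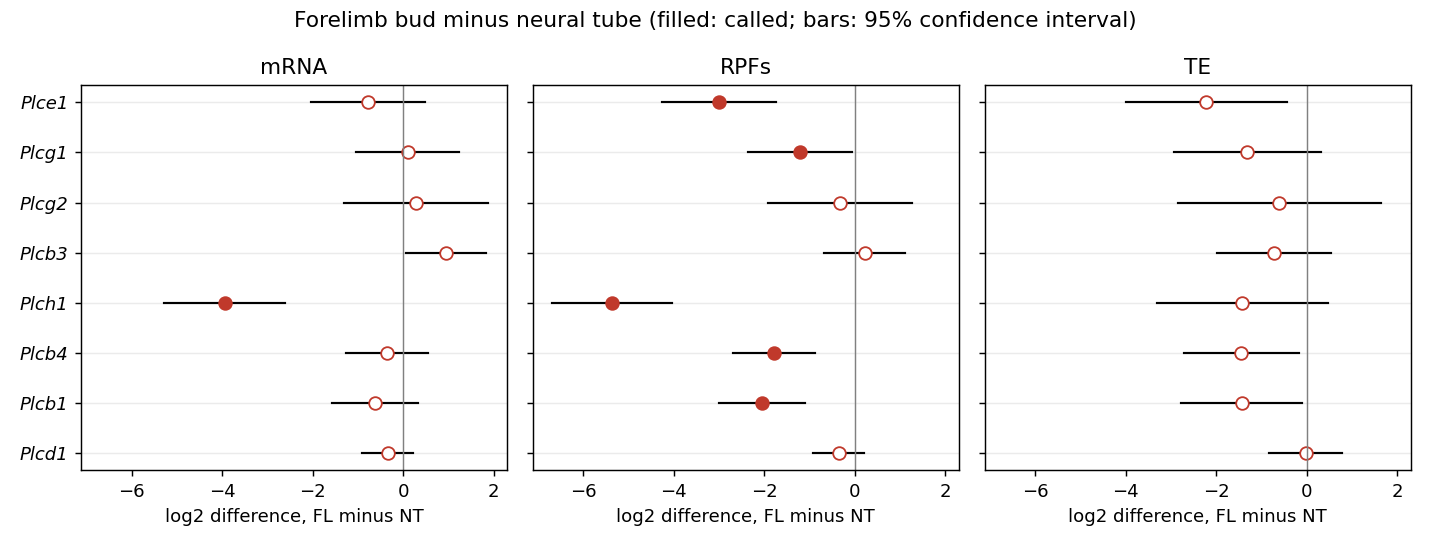
Fitted log2 difference, FL minus NT, of mRNA, RPFs and TE for the 8 PLC genes measured in both tissues. Circles are filled for called genes (at least 2-fold, adjusted p under 0.2), and bars are 95% confidence intervals. Filled circles mark *Plch1* for mRNA, 5 genes for RPFs and 0 genes for TE.

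For the change in TE between FL and NT, tested as the interaction of library type with tissue, limma called 0 of the 8 members, where 0.276% of the 11231 genes were called lower. All 8 fitted values were below 0, with a median of -1.36 against 0.01 over all genes. They ran from -2.22 for *Plce1* (SE 0.82, adjusted p = 0.291) to -0.02 for *Plcd1* (SE 0.37, adjusted p = 0.976). Other families shared this direction, with 8 of 8 AC genes below 0 (median -1.50) and 7 of 8 PI3K genes (median -0.81). Of 7 PKC genes 6 were below 0 (median -0.25), and the median over the listed signalling genes was -0.40. An unadjusted p under 0.05 was found for 3 members, *Plce1*, *Plcb4* and *Plcb1*. edgeR and DESeq2 also called 0, where they called 0.187% and 2.55% of all genes lower, with 1 and 3 members under an unadjusted p of 0.05.

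This result rests on replicate 3. Log2 TE of all 8 members was higher in FL replicate 3 than in FL replicates 1 and 2, and that of 7 of 8 members was lower in NT replicate 3 than in NT replicates 1 and 2. The median over the members was -0.11, -0.13 and -1.60 in NT replicates 1, 2 and 3 and -2.25, -2.34 and -0.34 in FL. Between libraries of the same number, FL was thus below NT for 8 of 8 members in replicates 1 and 2 and for 0 of 8 in replicate 3. Without replicate 3, limma called 7 of 8 members lower in FL, with *Plcd1* as the exception, but it then called 22.3% of all genes lower. *Plce1* had a change of -3.70 (SE 0.35, adjusted p = 0.000119) in that fit and *Plch1* one of -3.14 (SE 0.61, adjusted p = 0.00274). Leaving out NT replicate 3 alone gave 4 members, with 11% of all genes called lower, and leaving out FL replicate 3 alone gave 6, with 19.3%. Without replicate 1 or without replicate 2 the count of members was 0, but each of these fits called 0 of the 11231 genes in either direction. Those counts therefore say nothing about the members.

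Markers of blood and of macrophages differed between the same Ribo-Seq libraries. *Hba-x* had 128515, 164781 and 84882 normalized reads of RPFs in FL and 49354, 48778 and 66360 in NT. *Csf1r* had 1786, 1705 and 990 in FL and 703, 820 and 1181 in NT. The RPFs of both were thus lowest in replicate 3 in FL and highest in replicate 3 in NT. *Hba-a2*, an adult-type globin, had 2381, 2845 and 1224 in FL and 876, 993 and 655 in NT, the lowest in replicate 3 in both. In RNA-Seq *Hba-x* was instead highest in replicate 3 in FL, with 13021, 15434 and 23440 normalized reads. In NT its mRNA was lowest in replicate 3, with 18979, 15874 and 10789. RNA-Seq gave *Csf1r* 467, 426 and 391 in FL and 608, 461 and 517 in NT. The part of these cells in the TE of the members was not tested.

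In FL the split between replicates moved with the length of the CDS. There, Spearman's rho of log2 TE with CDS length over the 144 listed genes with an annotation was -0.51 in replicate 1, -0.47 in replicate 2 and -0.01 in replicate 3. Over the 8 PLC genes it was -0.98, -0.71 and -0.19. In NT the values over the 144 genes, -0.00, 0.07 and -0.13, were all near 0, and over the 8 PLC genes 0.05, -0.10 and -0.76. *Plce1*, the longest member, and *Plcg1* had the lowest log2 TE in FL replicates 1 and 2, and *Plcd1*, the shortest, the highest. The part of CDS length in the TE of the members was not tested.

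**Figure D5:**
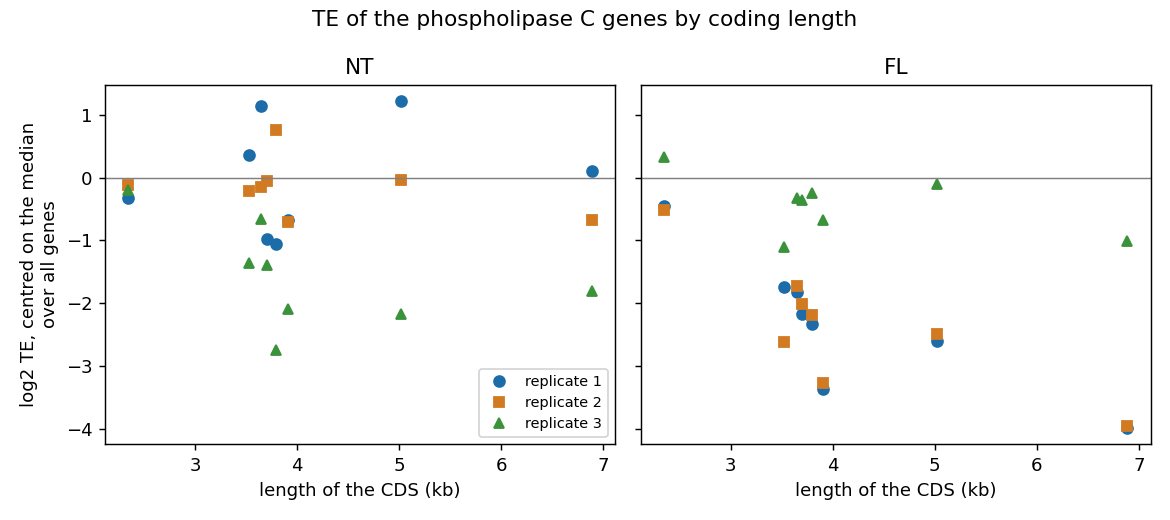
Log2 TE of the 8 PLC genes against the length of their CDS in kb, by replicate, in NT and FL, centred on the median over all genes (line at 0). In FL replicates 1 and 2, log2 TE runs from -0.45 and -0.51 in the shortest gene, *Plcd1*, to -3.99 and -3.96 in the longest, *Plce1*. In FL replicate 3 all 8 genes lie between -1.11 and 0.33.

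Set side by side without a test, since the mesoderm was normalized separately, mean log2 TE over the 3 replicates of *Plce1* was -2.44 ± 0.94 in the mesoderm, -0.79 ± 0.96 in NT and -2.99 ± 1.71 in FL (SD, n = 3). That of *Plcg1* was -2.04 ± 0.78, -1.16 ± 0.81 and -2.44 ± 1.53. *Plcg2* stood at -1.88 ± 1.02, -1.01 ± 1.76 and -1.59 ± 1.16. The lowest and highest replicates of *Plce1*, of *Plcg1* and of *Plcg2* overlapped among all 3 tissues. *Plcd1* had -0.42 ± 0.15, -0.21 ± 0.11 and -0.21 ± 0.47, with the smallest SD of the 8 members in NT and in FL.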

How the data were processed

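After adapter removal with cutadapt and filtering of structural RNAs, the authors mapped reads to canonical UCSC isoforms of mm10 and kept unique hits (Bowtie2 is named in the submitters' processing notes). They counted reads on the CDS without its ends, and the deposited signal values are these counts after division by DESeq's effective library size. Division by the worth of 1 read gave whole reads for 100.0% of values in each library, within 0.05 of a read. Symbols came from the study's list of signalling components, which pairs them with UCSC identifiers.

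Models were fitted to all genes of a table in R 4.3.3 with limma 3.58.1, on the log2 scale after adding 1 to the normalized reads, with a variance trend and Benjamini-Hochberg adjustment over all genes. A pseudocount of 1 understates the change of low genes. TE in the mesoderm was Ribo-Seq over RNA-Seq with the replicate number as a block, since each replicate's sorted cells were split between both library types. Deviations from the group means of same-numbered libraries had correlations of 0.74, 0.58 and 0.57 across genes. TE in NT and FL, and their differences, came from 1 fit of 12 libraries without a block, after the study's model, although the dissected cells were also split between both library types. TE was centred on its median. The genes named are all members and, of PKC, PI3K and AC, the lowest and highest in a comparison. A further family on the list is not reported here. Members, lists and tests were chosen with earlier results of these data known. edgeR 4.0.16 and DESeq2 1.42.0 on the recovered reads were alternatives, beside pseudocounts of 0.5 and 8, a minimum mean of 100 normalized reads, other thresholds, blocks and omitted replicates. The models for TE in the mesoderm and for the change in TE were tested on simulated data. Starts, CDS and 5′-UTRs came from GENCODE M21 (GRCm38), matched by symbol for 162 of 170 listed genes (95.3%). Genes with near-identical copies lose reads that map to several genes. Counting error is the one error that read depth describes here.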

Additional observations from a re-analysis of the deposited data

How the results depend on the processing

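In the mesoderm, 5 members were TE-low with pseudocounts of 0.5 and 8, with edgeR, with DESeq2 and without the replicate block. In these fits between 10.1% and 11% of all genes were TE-low. Without the block, 7 rather than 10 members had an unadjusted p under 0.05. The minimum of 100 normalized reads left 8 members and 3 calls, where 10.5% of the genes tested were called, since *Plcb2* and *Plcd3* were not tested there. The 2-fold threshold gave 8 calls, where 21.5% of all genes were called. Omitting 1 replicate gave between 3 and 7 TE-low members in the mesoderm, where 9.62% to 11.8% of all genes were called. In FL it gave between 1 and 7, where 8.16% to 18.2% were. Between 0 and 7 members were lower in TE in FL than in NT, where 0% to 22.3% of all genes were. Between 4 and 6 were lower in RPFs, where 14.2% to 26.6% were. Between 0 and 1 was higher in mRNA (*Plcb3*, without replicate 1 of both tissues or of NT). These 2 fits called 977 and 1055 of the 11231 genes higher. Omitting FL replicate 2 alone left 2 TE-low members in FL, where 10.1% of all genes were. Why these omissions moved the counts was not tested, beyond the values given for replicate 3. No value of a member called with all libraries changed sign under these alternatives. *Plcg2*, called lower in FL than in NT for RPFs and for TE without replicate 3 (-1.95 and -2.12), had 0.59 for each without replicate 2.

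Same-numbered NT and FL libraries did not deviate together, with correlations of -0.29, -0.50 and -0.58 in Ribo-Seq and -0.02, -0.22 and -0.24 in RNA-Seq. RNA-Seq and Ribo-Seq of 1 tissue had a positive correlation of 0.35 in NT replicate 2. The values were -0.28 and 0.05 in NT replicates 1 and 3, and 0.05, 0.12 and 0.09 in FL. With the replicate block, 0, 4, 1, 5 and 0 members were called lower for TE in NT, TE in FL, mRNA, RPFs and the change in TE, as without it. The shares of all genes were 3.85%, 13.3%, 10.1%, 19.6% and 0.0445%. A replicate block within tissue, chosen after seeing the data, gave the same counts of members. In that fit the mRNA and RPF differences were taken at replicate 1 and not over the replicates. Its counts for mRNA and RPFs therefore do not check the same quantity. Over all genes, the change in TE was called lower for 31 genes without a block, 5 with it, 3 with the block within tissue and 286 with DESeq2. Counting error limits *Plcb2* and *Plcd3* in the mesoderm and *Plch1*, with 22, 10 and 77 RPF reads, in FL.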

Other observations

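The families next to PLC also differed between FL and NT. RPFs were called lower in FL for 7 of 8 PI3K genes and 4 of 8 AC genes, and higher for 1 AC gene, *Adcy4*, where 19.7% of all genes were called lower and 15.5% higher. *Pik3cd*, the PI3K catalytic subunit best known from leukocytes, had the lowest value of its family at -3.88 on the log2 scale, and *Adcy1*, an isoform of neurons, that of AC at -3.17. Of 7 PKC genes 2 were called lower, *Prkcb*, named after its values were seen, and *Prkcz*, the lowest at -2.96.

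In FL the median log2 TE was -0.39 for PKC, while AC and PI3K, at -2.41 and -2.13, lay below the -1.65 of PLC. There, 6 of 8 AC genes and 5 of 8 PI3K genes were TE-low, where 13.4% of all genes were. The median log2 TE in FL replicates 1, 2 and 3 was -3.36, -2.82 and -1.03 for AC and -0.31, -0.53 and -0.08 for PKC. In NT the fitted medians were -1.05 for AC, -1.25 for PI3K and -0.37 for PKC, against -0.60 for PLC.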
